A study of Mus musculus with 27 samples.

Results

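The Hoxb cluster was described here as every position of the deposited methylation table in 180001 bp of mouse chromosome 11 from Hoxb13 to Hoxb1 (build mm10) that had a level in all 27 libraries. The first such position was 96192797 and the last 96366994. Of 747 positions in this interval, 685 met the rule, out of 871894 such positions in the whole table. The 62 others lacked a level in at least 1 library, 28 of them in 1 library only and none in more than 8. Joining positions with gaps of at most 200 bp gave 23 runs, out of 18447 runs of at least 3 positions in the genome. The members were chosen by place and completeness, and the height of the levels was not part of the rule.

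Hox genes encode homeodomain transcription factors that give cells their position along the head-to-tail axis, and their order on the chromosome follows the order in which they are used in the embryo. In the Hoxb cluster the tail-end gene Hoxb13 lies at one edge and the hindbrain gene Hoxb1 at the other. Methylation of cytosine in CpG dinucleotides is usually low in the CpG-rich stretches around Hox gene starts, where Polycomb proteins rather than DNA methylation often hold the genes silent.

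DNA came from C2C12, an established mouse myoblast line whose cells fuse into myotubes when serum is withdrawn. All groups were the same cells, differentiated in 2% horse serum and given 50% horse serum for 2 h, a shock that is used to synchronise circadian clocks in culture. The groups differed only in the time after the shock: 12, 18, 24, 30, 36, 42, 48, 54 and 60 h, with 3 libraries each. Methylation was measured by reduced representation bisulfite sequencing (RRBS), in which DNA is cut at CpG-rich sites before bisulfite conversion turns unmethylated cytosine into uracil. The labels name no genotype or agent beyond these, no unshocked group was analysed here, and expression markers of muscle cannot be read from methylation levels. They do not say whether the 3 libraries of a time came from separate cultures, so every p-value measures only the spread between these libraries, which may be technical.

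Levels were deposited as fractions and are given here in percent, and differences are in percentage points. The table holds no read counts, so depth is unknown and no counting interval can be given. How a level was computed from reads is not known here. The library of 48 h, replicate 2, lacked the fewest levels of the whole table, 1640, and that of 12 h, replicate 3, the most, 21925. Within the cluster, between 0.146% and 7.30% of the kept positions were at exactly 0 in a library. The library of 30 h, replicate 3, had the highest level in 5 of the 23 runs and the highest cluster mean. The library of 12 h, replicate 3, was at exactly 0 over 2 whole runs. Adjacent positions are not separate measurements: 195 pairs lay 1 bp apart and differed by 0.141 points on average. Whether levels were smoothed before deposit was not tested, and single-position values, steps and exact zeros below carry that limit.

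Promoter sequence was set beside the measured positions at the starts of the genes. Why some starts held no measured position was not tested. The RefSeq promoter table (GRCm38.p6, the assembly that mm10 names) covers 250 bases before to 50 bases after a start and holds 3 of the 10 protein-coding Hoxb genes. They are printed because Hoxb1 was measured at its start while Hoxb4 and Hoxb8 were not. All lie on the plus strand, and capitals mark CG dinucleotides. Hoxb1 covers chr11:96365508-96365807, Hoxb4 covers chr11:96318017-96318316 and Hoxb8 covers chr11:96281655-96281954.
Hoxb1: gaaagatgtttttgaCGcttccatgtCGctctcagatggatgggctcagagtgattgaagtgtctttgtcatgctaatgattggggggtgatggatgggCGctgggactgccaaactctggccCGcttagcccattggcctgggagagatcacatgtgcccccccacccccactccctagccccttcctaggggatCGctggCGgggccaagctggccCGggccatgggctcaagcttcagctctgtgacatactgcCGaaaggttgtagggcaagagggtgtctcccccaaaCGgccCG
Hoxb4: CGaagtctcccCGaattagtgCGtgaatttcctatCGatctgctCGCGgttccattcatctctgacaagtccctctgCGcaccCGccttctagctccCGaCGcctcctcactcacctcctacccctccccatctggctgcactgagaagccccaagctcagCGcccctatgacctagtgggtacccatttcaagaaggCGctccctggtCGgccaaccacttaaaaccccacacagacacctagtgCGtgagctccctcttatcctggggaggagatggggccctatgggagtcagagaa
Hoxb8: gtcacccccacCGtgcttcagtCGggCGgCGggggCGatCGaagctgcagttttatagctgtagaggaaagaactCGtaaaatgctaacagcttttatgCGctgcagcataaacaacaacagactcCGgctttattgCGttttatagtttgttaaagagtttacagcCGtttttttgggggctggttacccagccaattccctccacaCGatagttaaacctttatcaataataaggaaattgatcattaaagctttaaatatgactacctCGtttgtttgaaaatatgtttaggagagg

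The Hoxb1 window holds 10 CG dinucleotides, the Hoxb4 window 14 and the Hoxb8 window 13, against a median of 7 over the 32851 promoters of the table. The motif CCGG, which reads the same on both strands and is the site RRBS commonly cuts at, occurs once in the Hoxb1 and once in the Hoxb8 window and not in the Hoxb4 window. It occurs in 17338 promoters of the table (52.8%). No measured position fell in the Hoxb4 or Hoxb8 window, and 6 fell in that of Hoxb1, a homeodomain factor of hindbrain patterning. Distances here are counted from the Hoxb1 start in the promoter table, while the gene table places its lower end at 96365746. The CG 32 bp before the promoter-table start had a level of 28.9% ± 8.58 (SD over 27 libraries). It ranged from 3.45% to 45.5% with a median of 28.4%. The CG 7 bp after the start was at 12.1% ± 4.03. At 43 and 48 bp after the start the levels were 6.66% ± 3.86 and 6.22% ± 3.82. Over these 81 bases the 1 measured CG before the Hoxb1 start was thus higher than those after it. This holds for the mean of 27 libraries and as a description of the sites printed above. Beyond the printed window the same run stood higher again, at 19.8% ± 11.7 in the 100 bp from 96365826 and 23.3% ± 13.3 from 96365926 on.

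The runs formed a map of low to intermediate methylation with no run at 50% or more. Of the 23 runs, 8 lay under 10% and 15 between 10% and 50%, whereas 57.4% of all runs of the genome lay under 10% and 15.3% at 50% or more. The median run of the cluster stood at 14.6%. In the figures runs are numbered from 1 in Hoxb13 to 23 in Hoxb1. Among single positions, 287 had a mean under 10%, 369 between 10% and 50% and 29 at 50% or more. The map of run levels along the cluster shows the 3 runs that stand above 40%, in Hoxb5, Hoxb2 and Hoxb1.

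**Figure D1:**
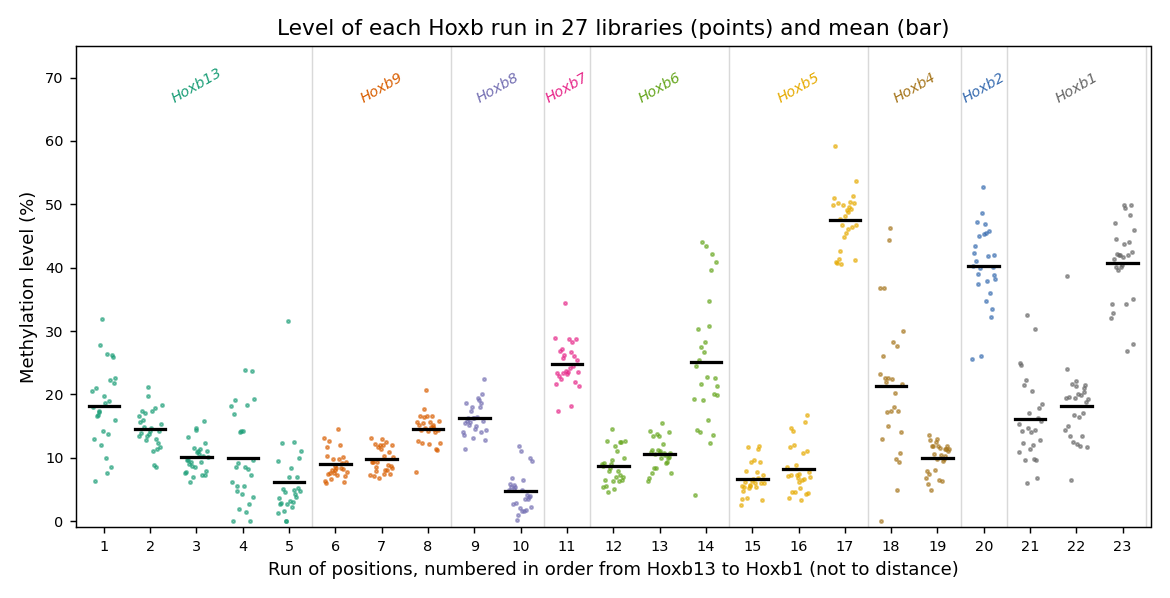
Methylation level (percent) of the 23 Hoxb runs, placed in order from Hoxb13 to Hoxb1 and not to distance, with a point for each of 27 libraries and a bar for their mean. The runs in Hoxb5 (47.5%), Hoxb1 (40.7%) and Hoxb2 (40.3%) stand above the others, and the lowest, in Hoxb8, lies at 4.73%.

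The highest run lay within Hoxb5, a trunk-patterning Hox gene, and also within the long non-coding RNA gene Hoxb5os (chr11:96304570-96305117, 44 positions). Its level was 47.5% ± 4.39 over 27 libraries, from 40.5% (30 h, replicate 1) through a median of 48.1% to 59.1% (12 h, replicate 3). Every library placed it above 40%, and single positions inside it differed far more than libraries did. Position 96304817 stood at 22.6% and position 96304988, 171 bp away, at 73.0%. This step of 50.3 ± 10.2 points (SD, n = 27) had the same direction in 27 of 27 libraries, with values from 34.2 to 85.0. The 2 positions were picked as the lowest and the highest of the run, so the step is a description.

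The last run of Hoxb1 was the second highest (chr11:96366842-96366994, 21 positions), at 40.7% ± 6.28. Libraries ranged from 26.8% (48 h, replicate 1) through a median of 41.9% to 49.9% (54 h, replicate 2). The other 2 runs of Hoxb1 were lower, at 16.2% ± 6.61 over its start (chr11:96365726-96365943) and 18.1% ± 5.85 between them (chr11:96366286-96366571). Counted from the lower end in the gene table, the highest of these runs lies 1096 to 1248 bp into a gene of 2509 bp. No position was kept beyond this run. Inside it the level was 45.5% ± 7.90 over the first 100 bp and 28.9% ± 5.13 over the rest. Hoxb2, another hindbrain gene, held the third highest run (chr11:96352026-96352216, 16 positions), at 40.3% ± 6.34. Its libraries ranged from 25.6% (12 h, replicate 1) through a median of 40.3% to 52.8% (36 h, replicate 1), so the Hoxb2 and Hoxb1 runs overlapped across libraries. The Hoxb2 run also lies inside Hoxb3os, a long non-coding RNA gene that the promoter table places on the minus strand, and a level there cannot be assigned to one of the 2 genes. Together these 3 runs were also the 3 nearest to 50%.

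The lowest run lay within Hoxb8, a gene of trunk patterning and of blood progenitors (chr11:96284449-96284707, 36 positions). Its level was 4.73% ± 3.05, from 0.102% (30 h, replicate 1) through a median of 4.07% to 11.9% (30 h, replicate 3). Both extremes came from 30 h, so libraries of that time spanned the whole range. The other Hoxb8 run (chr11:96282930-96283448, 37 positions) stood at 16.2% ± 2.496. Counted from the start in the promoter table, the higher run lies 1025 to 1543 bp and the lower run 2544 to 2802 bp into the gene, the reverse of the order in Hoxb1. The gene table places the lower end of Hoxb8 at 96279401 instead of 96281905, and from there the runs lie 3529 to 4047 bp and 5048 to 5306 bp inside the gene.

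The second lowest run lay at the far end of Hoxb13, a gene of the tail bud and the prostate (chr11:96196114-96196225, 7 positions). Its level of 6.11% ± 6.18 had a median of 4.61% and ran from 0 (30 h, replicate 1) to 31.6% (36 h, replicate 1), a single library far above the others. The third lowest lay 265 bp before the lower end of Hoxb5 (chr11:96303152-96303247, 18 positions), at 6.71% ± 2.49, from 2.55% through 6.09% to 11.8%. Hoxb5 thus had low runs beside its lower end and the highest run of the cluster inside it. A run of 10 positions just inside the same end (chr11:96303622-96303740) stood at 8.30% ± 3.79.

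The long runs of the middle genes lay between these extremes. Hoxb9, which acts in the patterning of the ribs, held runs of 109 positions (chr11:96271173-96272177, 9.78% ± 2.02) and 66 positions (chr11:96272409-96272868, 14.6% ± 2.44). A run of 52 positions before its lower end stood at 8.96% ± 2.22. In the longest Hoxb9 run the highest position was the first, 96271173, at 35.4%, and the lowest was 96272025, at 3.88%. Both were picked from the values of the run, and its last position stood at 12.6%. The single run of Hoxb7 (chr11:96286103-96287393, 102 positions) stood at 24.8% ± 3.51, between 17.4% (18 h, replicate 1) and 34.3% (30 h, replicate 3). Inside it positions ranged from 8.26% at 96287393 to 45.2% at 96286747, and the highest position stood above the lowest in 27 of 27 libraries. These 2 positions were picked as the lowest and the highest of the run, so their difference is a description. In stretches of 100 bp the mean lay between 11.7% and 40.4%. The Hoxb7 level was thus intermediate over most of its measured length rather than at an edge.

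**Figure D2:**
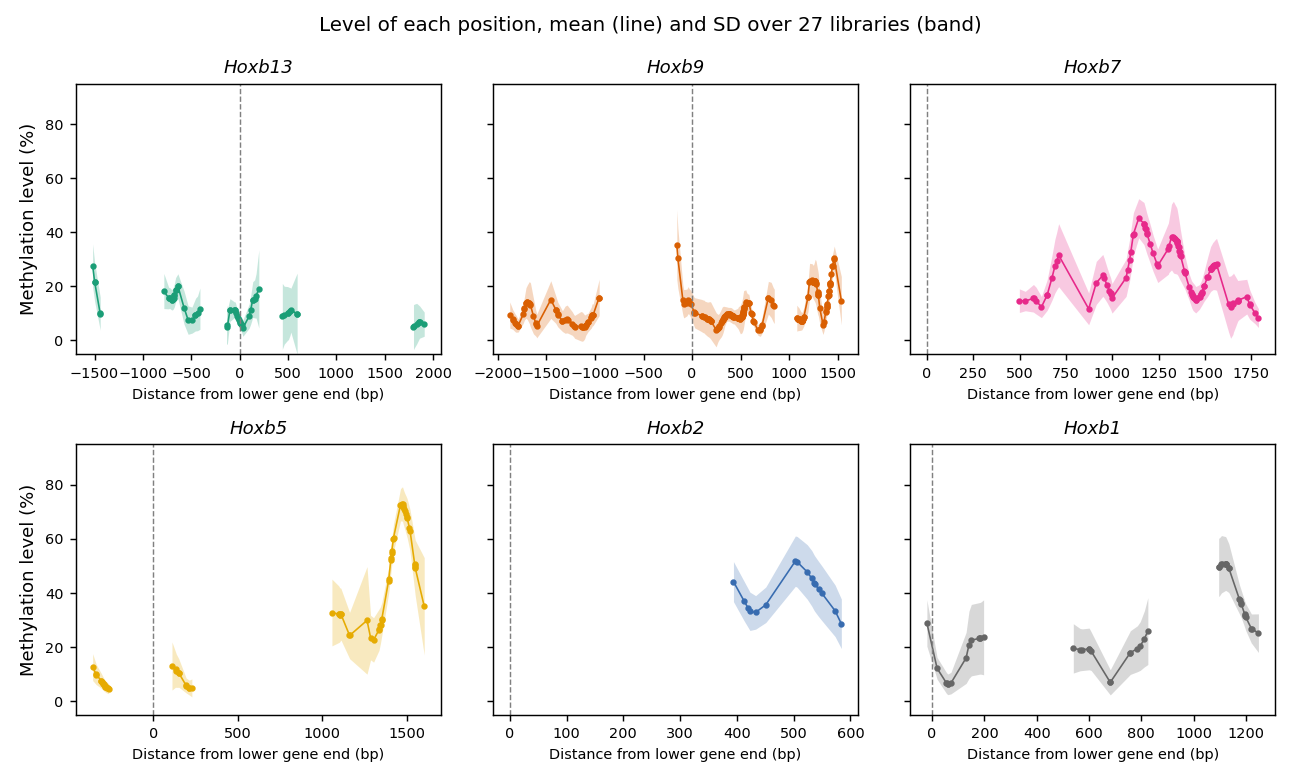
Methylation level (percent) of single positions in Hoxb13, Hoxb9, Hoxb7, Hoxb5, Hoxb2 and Hoxb1 against distance in bp from the lower end of each gene (dashed line), with points joined within a run for the mean and a band for the SD over 27 libraries. Hoxb5 shows the step from 22.6% to 73.0%, and Hoxb7 the broad peak of 45.2%.

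The remaining runs were lower or more variable. Hoxb6, a trunk-patterning gene, had a run of 16 positions at 8.68% ± 2.73 (chr11:96293133-96293525). Beyond its higher end lay a run of 5 positions at 10.7% ± 2.36 and a run of 6 positions at 25.2% ± 10.4 (chr11:96302391-96302456). The latter ranged from 4.14% (12 h, replicate 2) through 22.7% to 44.1% (30 h, replicate 1). In Hoxb4, a gene studied for its effect on blood stem cells, a run of 46 positions stood at 10.0% ± 2.42 (chr11:96319981-96320412). A short run of 7 positions in the same gene (chr11:96318871-96318946) stood at 21.4% ± 11.03, the largest SD in the cluster. Its libraries ranged from 0 (12 h, replicate 3) through 21.6% to 46.2% (36 h, replicate 1). Both Hoxb4 runs lie inside the longer Hoxb3 span as well, and Hoxb3 had no measured position of its own.

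Around Hoxb13 the level was 18.2% ± 6.41 in the run farthest before its lower end (chr11:96192797-96192875). It was 14.6% ± 3.03 in the run nearer to it and 10.1% ± 2.46 in the run across that end (chr11:96194181-96194515). A run of 8 positions inside the gene stood at 9.99% ± 7.20, from 0 (12 h, replicate 3) through 8.53% to 23.9% (42 h, replicate 1). The SD over libraries had a median of 6.81 points (2.36 to 11.03) in the 6 runs of at most 8 positions and of 3.03 points (2.02 to 6.61) in the 17 longer runs, so the ranges overlapped. Of the 3 runs with the largest SD, in Hoxb4, beyond Hoxb6 and in Hoxb13, none held more than 8 positions.

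Large stretches of the cluster carried no kept position. The longest ran for 73227 bp from 96196225 to 96269452 and holds 6 annotated genes. These are the non-coding or pseudogene entries Gm30134, Gm11538, Gm11539, Gm53 and Gm51876 and the microRNA gene Mir196a-1. Another stretch of 31614 bp followed Hoxb4, and one of 13754 bp between Hoxb5 and Hoxb4 holds the microRNA gene Mir10a. The nearest position to Mir10a lay 1597 bp away and the nearest to Mir196a-1 4187 bp away, so neither has a level here. The 556 positions inside protein-coding Hoxb genes averaged 18.5% and the 129 outside them 11.6%.

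Whether gene ends were less methylated than the rest of the cluster was tested within libraries. The windows ran from 1000 bp outside to 500 bp inside each gene end, since the reference gives strand for few of the genes. A window can therefore hold a gene's start or its far side. The 216 positions in windows averaged 11.6% and the 469 other positions 19.8%. The difference of -8.23 ± 1.903 points (SD, n = 27) was negative in 27 of 27 libraries, from -13.9 to -4.62. The permutation test with 100000 sign flips over libraries, two-sided, gave p = 1e-05, the smallest it can give. It measures the spread between libraries and not between genes, and the genes weighed unequally. The lower-end windows of Hoxb9 and Hoxb13 held 74 and 49 of the 216 positions. Of 10 windows with at least 3 positions, 5 lay under 10%. The lower-end window of Hoxb2 stood at 36.2%, above the other positions, and the higher-end window of Hoxb6 at 18.6%.

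Levels were also set against the distance from the lower end of each gene. From 0 to 500 bp inside the genes the mean was 10.7% ± 2.05 (115 positions of 7 genes), and from 1000 to 2000 bp it was 25.5% ± 1.87 (249 positions of 6 genes). The difference was 14.9 ± 3.22 points and positive in 27 of 27 libraries, from 7.41 to 23.1. These distances were chosen after the levels had been seen, so the difference is a description. The distances also weigh the genes differently. Hoxb7 gave 81 of the 249 far positions, but its kept positions began 499 bp inside its lower end, at the edge of the near stretch. Distances were counted from the lower end in the gene table, which leaves out the Hoxb8 run at 16.2%. From the start in the promoter table that run would lie at 1025 to 1543 bp. Genes differed in the change between the near and the far stretch. Hoxb5 had 8.30% from 0 to 500 bp and 47.5% from 1000 to 2000 bp. In Hoxb1 the same distances had 15.2% and 40.7%, and in Hoxb9 8.20% and 14.6%. Hoxb2 stood at 36.2% already from 0 to 500 bp and had no position beyond 1000 bp. Hoxb13 went the other way, with 10.6% and 6.11%, and Hoxb4 had 9.58% from 1000 to 2000 bp, below the 21.4% of its 500 to 1000 bp stretch.

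Against the other Hox clusters, each taken from its first to its last gene with 2000 bp on either side, the standing of Hoxb depended on the measure. The mean over its positions was 17.2% ± 0.982 over 27 libraries, against 31.4% ± 1.35 for Hoxa (1012 positions) and 33.6% ± 1.44 for Hoxd (768 positions). Hoxb was below Hoxa in 27 of 27 libraries, by -14.1 ± 1.49 points, and below Hoxd in 27 of 27, by -16.4 ± 1.64 points. Both permutation tests with sign flips over libraries gave p = 1e-05, adjusted p = 1.5e-05 over the 3 clusters by Benjamini-Hochberg. Hoxc was at 16.3% ± 0.825 (508 positions).

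Hoxb was above Hoxc by 0.965 ± 1.33 points, in 21 of 27 libraries, with a permutation p = 0.00035. This difference turned to -4.01 points (permutation p = 1e-05) when each run counted once, and was 0.156 points (permutation p = 0.558) when no flanking bases were added to the other clusters. No order of Hoxb and Hoxc holds over these choices. The median run gave another order, 14.6% in Hoxb against 7.83% in Hoxa, 4.48% in Hoxc and 29.6% in Hoxd, so by that measure Hoxb lay above Hoxa as well. The clusters also differed in shape. Hoxa had 13 of 24 runs under 10% and 7 at 50% or more, and Hoxc had 14 of 18 under 10% and 3 at 50% or more. Hoxd had 1 of 16 under 10% and 15 between 10% and 50%. Hoxb had no run at 50% or more, as Hoxd had none, but 8 of its 23 runs lay under 10%.

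**Figure D3:**
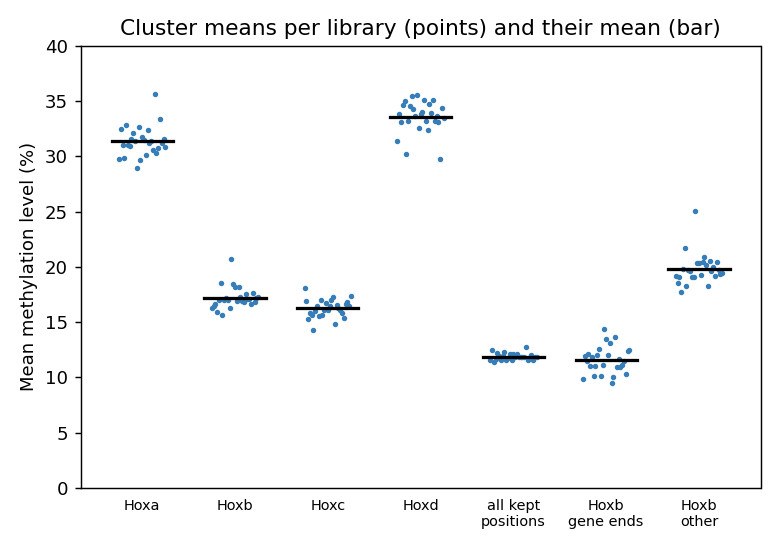
Mean methylation level (percent) of each of the 27 libraries (points, with a bar for their mean) over the 4 Hox clusters, all kept positions, the Hoxb gene-end windows and the other Hoxb positions. Hoxb and Hoxc overlap around 17.2% and 16.3%, and all points of Hoxa and Hoxd lie above them.

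Other genes of the pathway were read from the same gene-end windows. The Hoxb genes had 10 windows of 8 genes with a median of 10.9%, from 5.37% to 36.2%, and Hoxb3 and Hoxb4 had none. The 25 windows of 20 other Hox genes had a median of 28.2%, with Hoxa2 at 98.4% and Hoxa10 at 1.48%. Windows of Hox cofactors such as Pbx and Meis genes had a median of 2.56% (7 windows), and those of Polycomb genes one of 2.70% (16). Trithorax genes, which oppose Polycomb silencing, had a median of 2.64% (10). Genes of retinoic acid and caudal signalling, which set Hox expression in the embryo, had a median of 29.0% (8). They ranged from 3.88% in Rarg to 83.8% in Cdx1, with Rara at 74.4%. Of these 8 windows, 2 lay under 10% and 2 at 50% or more. Over all 12508 windows the median was 3.73%. No window of these lists passed an adjusted p of 0.05 in any of the 4 tests below.

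Whether levels followed a 24 h rhythm after the shock was tested on every run of the genome, with adjustment over all of them. The limma fit called 0 of the 23 Hoxb runs at an adjusted p under 0.05, where it called 0% of all runs. At an unadjusted p under 0.05 it was again 0 of 23, against 4.34% of all runs. Fitted amplitudes of the Hoxb runs lay between 0.196 and 3.75 points with a median of 1.20. For 14 of the 23 runs the upper 95% limit of this amplitude was below 5 points and for 22 it was below 10.

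The smallest rhythm p among Hoxb runs belonged to the run just inside the lower end of Hoxb5 (chr11:96303622-96303740). In the first cycle its means were 6.39% ± 2.53 at 12 h, 11.2% ± 3.73 at 18 h, 10.3% ± 5.05 at 24 h and 6.91% ± 2.11 at 30 h (SD over 3 libraries each). At the matching times 24 h later they were 6.76% ± 0.616, 5.04% ± 1.53, 11.01% ± 4.46 and 10.7% ± 6.24, and at 60 h 6.39% ± 1.71. The 18 h and 42 h libraries, which share a phase of the 24 h cycle, did not overlap. The amplitude was 2.09 points (SE 0.920), with a limma adjusted p = 0.980. The run before that end had an amplitude of 1.37 points and the Hoxb13 run at 96192797 one of 3.75 points (SE 1.72), both with the same adjusted p. In the latter run the 30 h libraries spread from 12.0% to 31.9%, wider than the amplitude.

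Any difference between time points was tested with time as a factor. The limma fit called 0 of 23 Hoxb runs, against 0.00542% of all runs, and 0 of 23 at an unadjusted p under 0.05, against 4.3%. The smallest p was that of the last Hoxb1 run. Its libraries were at 32.1%, 34.3% and 32.8% at 12 h and at 41.4%, 47.0% and 44.5% at 18 h, which do not overlap. At 48 h they were at 26.8%, 41.9% and 44.1% and at 54 h at 48.2%, 49.9% and 42.4%. Time point means spanned 13.8 points, with a limma adjusted p = 0.990. The Hoxb9 run of 66 positions spanned 5.69 points, with a high mean of 17.7% ± 2.99 at 30 h and a low one of 12.0% ± 3.93 at 12 h. The Hoxb13 run across its lower end spanned 5.25 points.

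**Figure D4:**
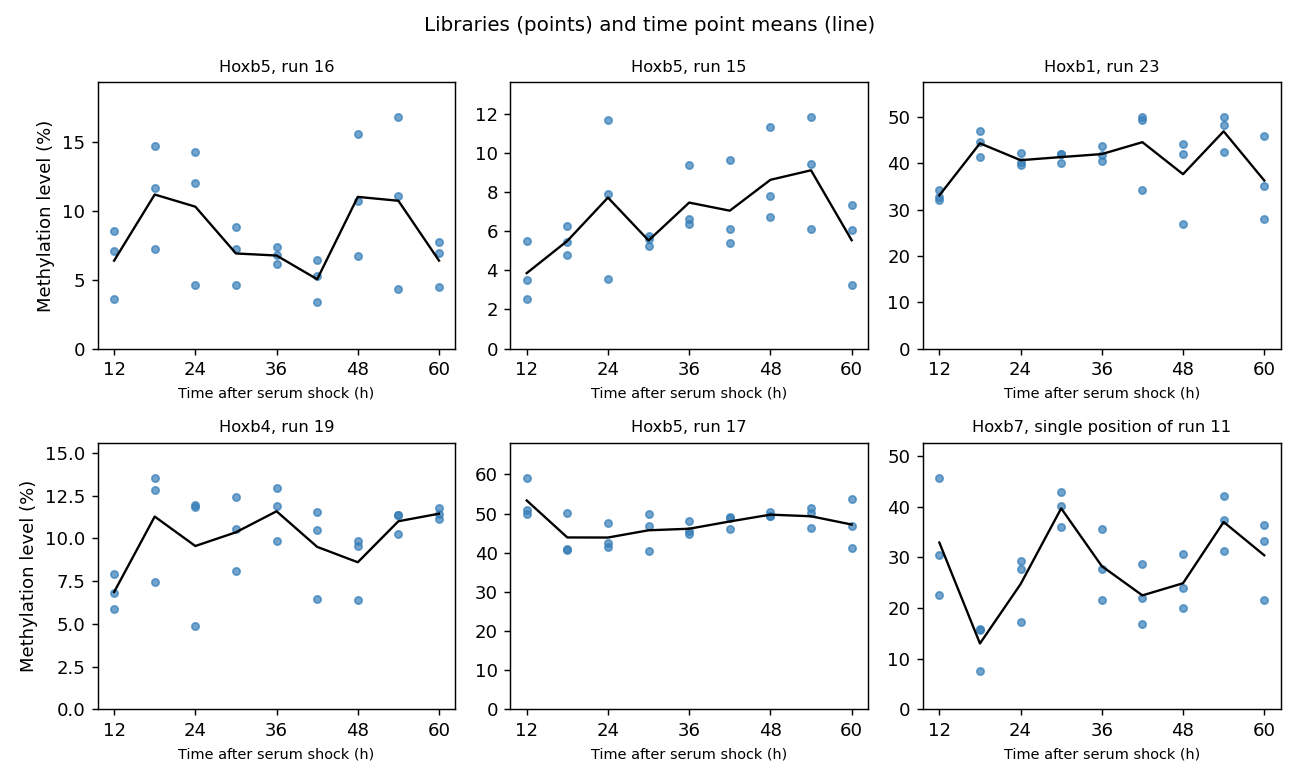
Methylation level (percent) against hours after the serum shock for runs 15, 16 and 17 of Hoxb5, run 19 of Hoxb4, run 23 of Hoxb1 and the Hoxb7 position with the smallest rhythm p, with points for libraries and lines for the mean of 3. The level axes differ between panels, and the Hoxb1 run lies at 32.1% to 34.3% at 12 h and reaches 49.9% at 54 h, with wide spread at 48 h.

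A linear trend over the 48 h of sampling was called for 0 of 23 Hoxb runs by limma, against 0% of all runs. It was 0 of 23 at an unadjusted p under 0.05, against 4.99% in either direction and 2.4% upward. The smallest p-values went with trends of 2.78 points per 48 h (SE 1.40) in the run before Hoxb5 and 2.77 points (SE 1.40) in the first Hoxb8 run, both with a limma adjusted p = 0.976. The Hoxb8 run was at 13.01% ± 1.45 at 12 h and at 16.5% ± 5.14 at 60 h, with overlapping libraries. The Hoxb13 run at 96193533 had a slope of -2.53 points. Over all 23 runs the slopes lay between -6.56 and 6.63 points, and 13 were positive.

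The end of the series was set against its beginning, 60 h against 12 h. Of the 23 runs limma called 0, against 0% of all runs, and 1 of 23 at an unadjusted p under 0.05, against 5.33%, or against 2.53% in the upward direction of this run. That run was the longer one in Hoxb4. Its 12 h libraries stood at 6.80%, 7.91% and 5.88% and its 60 h libraries at 11.8%, 11.1% and 11.4%, so the times did not overlap. The difference was 4.58 points (SE 1.84), with a limma adjusted p = 0.917, and the times between ran from 8.60% ± 1.91 at 48 h to 11.6% ± 1.57 at 36 h. The highest run, in Hoxb5, was at 49.9%, 51.0% and 59.1% at 12 h and at 41.2%, 53.6% and 46.8% at 60 h, which overlap. Its difference was -6.14 points (SE 3.12). Without 60 h, replicate 2, it was -9.34 points, and without 60 h, replicate 1, -3.15 points. The first Hoxb8 run differed by 3.53 points (SE 1.98), with 0.602 points without 60 h, replicate 1, and 5.41 points without 60 h, replicate 2.

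**Figure D5:**
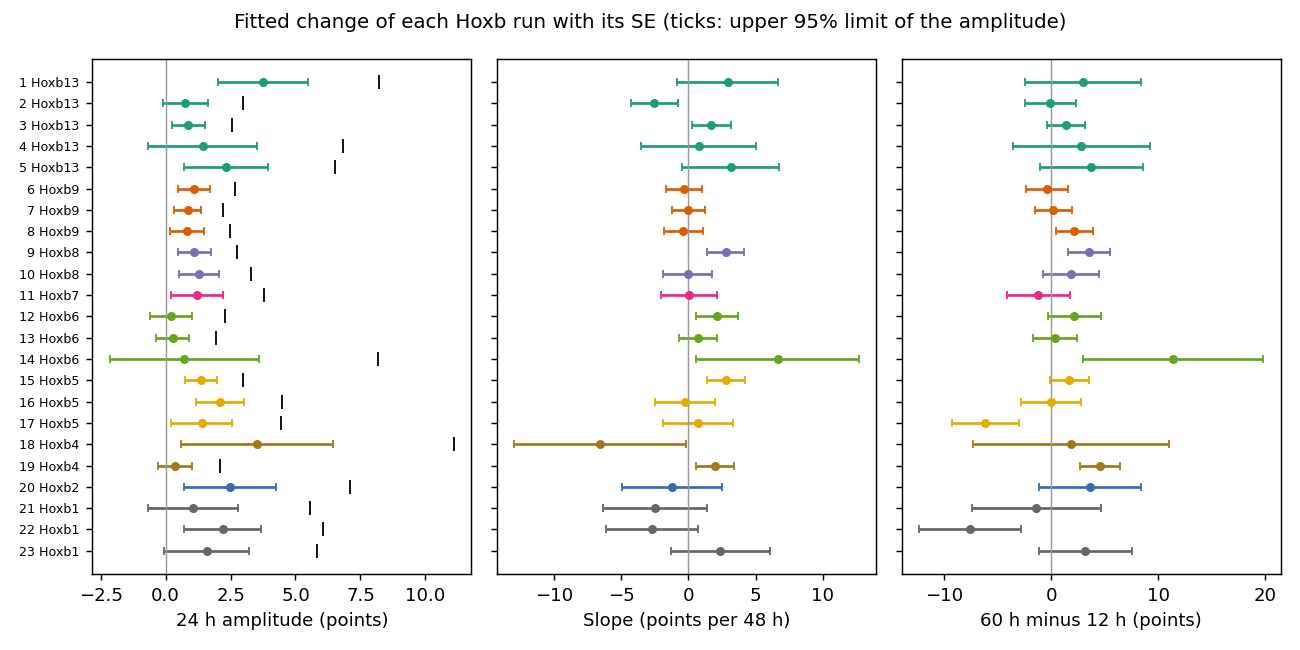
Fitted effects of the 23 Hoxb runs in percentage points for the 24 h amplitude, the trend and 60 h minus 12 h, with bars for the SE and ticks for the upper 95% limit of the amplitude. Amplitudes reach 3.75 points and differences between 60 h and 12 h run from -7.61 to 11.4, and no run passed the adjusted threshold.

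Single positions were tested in the same way over all 871894 positions. The rhythm was called by limma at 0 of 685 Hoxb positions, against 0% of all positions, and 45 (6.57%) had an unadjusted p under 0.05, against 3.91%. These 45 positions formed 6 groups joined within 80 bp, and the largest, in Hoxb7, held 17 positions over 81 bp. Neighbouring levels share information, so the 45 are not separate events. For any difference between times, 0 of 685 were called, against 0.00413% of all positions, and 38 (5.55%) had an unadjusted p under 0.05, against 4.17%. For 60 h against 12 h the counts were 0, against 0.007%, and 24 (3.5%), against 5.26%. The trend gave 0, against 0%, and 29 (4.23%), against 4.48%.

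The position with the smallest rhythm p lay in that Hoxb7 group, at 96287167, with a mean of 28.1%. The 18 h libraries stood at 7.50%, 15.9% and 15.6% and the 30 h libraries at 40.1%, 36.0% and 42.8%, without overlap. One cycle later the 42 h libraries were at 28.7%, 16.8% and 22.0% and the 54 h libraries at 42.1%, 37.4% and 31.3%, also without overlap. The position was picked by a fit that used both cycles, so the second cycle is not a separate test of the first. The amplitude was 10.7 points with an unadjusted p = 1.8e-05, the third smallest of all positions, and a limma adjusted p = 0.953. At 96287232, the next measured position and 65 bp away, the unadjusted p was 0.985. The whole Hoxb7 run, which holds 102 positions, had an amplitude of 1.20 points.

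The smallest trend p belonged to position 96193533, the first of a run before the lower end of Hoxb13. Its libraries were at 26.1%, 27.1% and 20.6% at 12 h and at 11.4%, 18.5% and 11.8% at 60 h, which do not overlap. The lowest mean, 9.95% ± 1.72, was at 48 h. The slope was -11.8 points per 48 h (SE 3.10), with a limma adjusted p = 0.975. Between 60 h and 12 h the smallest p was that of position 96320062 in Hoxb4, which differed by 7.75 points (SE 2.91), with a limma adjusted p = 0.938. Its 12 h libraries stood at 0, 5.44% and 0.766% and its 60 h libraries at 7.93%, 7.66% and 13.9%, without overlap.

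Gene-end windows were tested as well. Of the 10 Hoxb windows limma called 0 for the rhythm, against 0% of all windows, and 2 had an unadjusted p under 0.05, against 4.24%. These were the lower-end windows of Hoxb7, whose 10 positions averaged 5.37%, and of Hoxb5, at 7.28%. The Hoxb7 window reaches into Hoxb8, and 9 of its 10 positions belong to the lowest run of the cluster, in Hoxb8. Its level therefore says little about Hoxb7. For the trend limma called 0 of the 10 Hoxb windows, against 0%. Of them 1 had an unadjusted p under 0.05, against 4.8%, or 2.25% upward, the direction of this window. This was the Hoxb6 lower end, with 5.37 points per 48 h (SE 2.61). For any difference 0 of 10 were called, against 0.024%, and 0 of 10 had an unadjusted p under 0.05, against 3.89%. For 60 h against 12 h it was 0 of 10, against 0%, and 0 of 10, against 5.12%, or 2.26% upward.

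The cluster as a whole was followed as 1 mean per library. It was 16.5% ± 0.198 at 12 h, 18.0% ± 2.36 at 30 h and 17.1% ± 0.247 at 60 h, each with the SD over 3 libraries. The high value at 30 h came with a single library at 20.7%, while the other 2 stood at 17.04% and 16.3%. Without that library the 26 others averaged 17.1% ± 0.710. The time point means spanned 1.53 points, where the pooled SD within times was 1.03 points, with a permutation p = 0.735 (100000 permutations of the time labels, two-sided). The 24 h amplitude was 0.136 points (permutation p = 0.906) and the slope 0.358 points per 48 h (permutation p = 0.566). Adjusted by Benjamini-Hochberg over these 3 measures, the permutation p was 0.906 for each.

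Whether neighbouring runs varied together across libraries was asked last. Over the 22 pairs of adjacent runs, Pearson's r over 27 libraries lay between -0.362 and 0.440 with a median of 0.0653. By permutation and Benjamini-Hochberg adjustment over the 22 pairs none passed 0.05, and the smallest adjusted p was 0.454. The highest r, 0.440 (permutation p = 0.0213, Spearman's rho 0.479 with p = 0.0128, adjusted 0.280), joined the longer Hoxb4 run and the Hoxb2 run, 31614 bp apart. It was 0.512 without the 2 libraries farthest from the median.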

How the data were processed

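RRBS methylation levels were measured in 27 C2C12 libraries. The authors deposited a single table of levels as a fraction from 0 to 1 per position and library, per the file headers. Reads were handled on build mm10 with Bowtie2, Bismark 0.14.4, cutadapt 1.9.1 and Trim Galore 0.4.0, per the submitters' processing notes. The calculation and filtering of levels were not given in the sources used here, and without counts nothing was weighted by depth. Fractions were multiplied to percent, and 871894 of 937644 positions (93.0%) with a value in every library were kept. Runs joined positions with gaps of at most 200 bp. On chromosome 11, 21133 of 21134 positions within the RefSeq promoter table lay on a CG when counted from 1, so coordinates are 1-based. Groups were the time points in the sample titles.

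Runs, positions and gene-end windows were fitted on percentage points over all 27 libraries with limma 3.58.1 in R 4.3.3 (data.table at version 1.17.8), with a 24 h cosine and sine, time as a factor, linear time, and 60 h minus 12 h. P-values were adjusted by Benjamini-Hochberg over all features of the genome, with a threshold of 0.05. Means per library were compared by 100000 permutations (scipy 1.17.1, pandas 2.3.3 and numpy 2.4.6 in Python 3.11.15, with matplotlib 3.10.9 for figures). The limma fits were tested on simulated data with the 18447 runs: rhythms of 5 points were recovered in 30% and of 10 points in 79% of cases, and trends of 10 points in 25% and of 5 points in 0%. Gene-start windows were planned, but starts with strand were in the promoter table for 3 of 10 genes, so both gene ends were used. Exons and untranslated regions are not annotated here. Runs named with library values were the 3 highest, the 3 lowest, the 3 nearest 50%, the 3 with the largest SD and the 3 with the smallest p in each test, and the position with the smallest p in each test was named. The Hoxb7 run was given with library values in addition, after its values had been seen. Members and lists were chosen with earlier results of these data known. Alternatives covered completeness, run gaps, run size, period, scale, library mean, a replicate block and leaving out libraries.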

Additional observations from a re-analysis of the deposited data

How the results depend on the processing

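The count of called Hoxb runs and positions was 0 in all 4 tests under every alternative tried, 37 for the rhythm and 34 for the other tests of runs. For positions it was 33 and 30. The number of Hoxb positions with an unadjusted rhythm p under 0.05 ran from 15 to 63. The smallest limma adjusted p of a Hoxb position was 0.220 (any difference between times), and that of a run 0.636 (60 h against 12 h). With the replicate block the counts were also 0, and the amplitude at position 96287167 stayed 10.7 points with a limma adjusted p = 0.953. Over all runs of the genome, deviations of same-numbered libraries correlated between -0.0434 and 0.0378, and 12 of 27 libraries correlated best with their own number. The mean correlation was 0.00489 for same-numbered pairs and -0.00242 for other pairs. Over the Hoxb runs alone, same-numbered libraries correlated between -0.758 and 0.693, with a mean of -0.0213 against 0.0101 for other pairs. These values cannot tell whether same-numbered libraries shared a culture or a batch.

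Leaving out a single library moved the range of the cluster mean between 1.39 and 2.40 points (the highest without 30 h, replicate 2), and each run counted once gave 2.68. Leaving one out moved the amplitude of the mean between 0.0645 (without 18 h, replicate 1) and 0.270 (without 18 h, replicate 3) and the slope between 0.194 and 0.577 (without the same libraries). With a single library left out, the difference from Hoxa lay between -14.3 and -14.0 points and that from Hoxc between 0.826 and 1.07. That from Hoxd lay between -16.6 and -16.3 and that of gene ends between -8.37 and -8.01. The other alternatives moved them further. Over all alternatives the difference from Hoxa ran from -19.0 to -14.0 points and that from Hoxd from -16.6 to -11.1. That of gene ends ran from -8.69 to -6.99. Hoxb minus Hoxc reversed to -4.01 points with each run counted once and was 0.156 points, no longer past the threshold, with 0 bp added to the other clusters. The cause was not tested. The lower ends of genes alone, an alternative chosen after seeing the data, gave -8.69 points. The planned window of 250 bp before to 50 bp after a start was not run, since strand was known for few of the genes. The windows of 1000 bp outside to 500 bp inside both gene ends were run in its place. Depth is unknown, so small levels cannot be given a detection limit.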
